A study of Mus musculus with 16 samples.

Results

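The comparison described here set 4 Dnmt3a2 libraries against 4 Control libraries of mouse dorsal hippocampus, all taken 1 day after contextual fear conditioning. These are 8 of the 16 libraries of the series, chosen by their labels, and the other 8 are the same virus groups at 5 days. Conditioning pairs a place with a foot shock, so that the animal later freezes in that place. Control mice received a recombinant adeno-associated virus (rAAV) expressing GFP, and Dnmt3a2 mice an rAAV expressing exogenous Dnmt3a2. Injection into the dorsal hippocampus preceded training by 3 weeks. Every group was injected and conditioned, and no unconditioned or uninjected group was analysed here, so the virus is the only labelled difference within a day. Serotype, viral promoter, infected cell types, strain, sex and age are not in the labels used here. The labels also do not tie each library to an animal of its own. The p-values therefore measure only the spread between these libraries.

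Dnmt3a is a de novo DNA methyltransferase: it adds methyl groups to cytosines that carried none, mainly in CG dinucleotides and, in neurons, also at other cytosines. Dnmt3a2 is its short isoform, made from an internal start of the gene, and lacks part of the amino-terminal region of Dnmt3a1. In the hippocampus it is known as a gene induced by neuronal activity that takes part in memory formation. Methylation of a promoter is commonly linked to lower transcription, whereas methylation within gene bodies is often found in active genes.

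Totals were 28.7 to 29.9 M estimated counts per library, and levels are given in CPM (counts relative to library size, scaled by TMM). The dissection held hippocampal neurons of both main fields: Prox1, the granule cell factor of the dentate gyrus, ran at 134 to 171 CPM in Control and 144 to 186 CPM in Dnmt3a2, and the CA1 markers Wfs1 and Fibcd1 at 256 to 341 CPM in Control and 212 to 309 CPM in Dnmt3a2, and at 198 to 210.1 CPM in Control and 199.5 to 231 CPM in Dnmt3a2. The Y-linked genes Ddx3y and Kdm5d were at 9.78 CPM or more in all 8 libraries, and Xist did not exceed 0.0347 CPM. Dnmt3a2 replicate 1 stood apart by its choroid plexus transcripts: Ttr, the transthyretin made there, was at 6.19, 6.94, 9.93 and 32.8 CPM in Control replicates 1 to 4 and at 773, 7.39, 86.6 and 11.8 CPM in Dnmt3a2 replicates 1 to 4. Replicate 1 of Dnmt3a2 at both days is called choroid-rich below, and these 2 libraries with Control replicate 1 of 1 day are called interferon-rich. In bulk tissue, fewer cells of a type and less RNA per cell cannot be told apart.

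Dnmt3a, the gene the virus delivers, was 27.7-fold higher in the Dnmt3a2 group. Dnmt3a stood at 35.1, 33.6, 35.4 and 34.9 CPM in Control replicates 1 to 4 and at 623, 1096, 1153 and 982 CPM in Dnmt3a2 replicates 1 to 4. The Control libraries lay within 1.81 CPM of each other, while Dnmt3a2 replicate 1 held the least of its group and the lowest Dnmt3a2 library was still far above the highest Control library. The log2 fold change was 4.79 (SE 0.17, edgeR adjusted p = 2.19e-09), and permuting the 8 libraries between the groups (exact, two-sided) gave p = 0.0286, the smallest that 70 regroupings allow. Dnmt3a (ENSMUSG00000020661, chromosome 12, 3806007 to 3914443, plus strand, build GRCm38) has 3 RefSeq starts, the last of them 84.8 kb after the first, but counts per gene separate neither the isoforms nor the delivered from the endogenous sequence.

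No other gene of the methylation machinery was called. Of 27 tested genes, Dnmt3a was the only one called. The list held DNA methyltransferases, demethylating enzymes, methyl-CG readers and some chromatin regulators such as the histone methyltransferase Ehmt1. In all, 18 of the 27 lay above 0, with a median log2 fold change of 0.08, beside 8600 of 16899 genes and a median of 0.003 over all genes tested. For this and most lists below, the lowest and highest median over the 8 fits that leave out 1 library of day 1 are given too, here 0.022 without Dnmt3a2 replicate 1 to 0.089 without Dnmt3a2 replicate 3. Tet2, an enzyme that oxidises methylated cytosine, had a log2 fold change of 0.20 (edgeR adjusted p = 0.713). Dnmt3b, the other de novo methyltransferase, was low in every library, at 0.101 to 0.416 CPM in Control and 0.241 to 0.659 CPM in Dnmt3a2 (edgeR adjusted p = 0.721).

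Across the genome few genes passed the test at 1 day. In the edgeR quasi-likelihood fit 15 of 16899 genes (0.0888%) were called at an adjusted p under 0.05, 9 higher (0.0533%) and 6 lower (0.0355%) with Dnmt3a2. At an unadjusted p under 0.05 there were 1212 genes (7.17%), and in 580 genes (3.43%) the 4 libraries of one group did not overlap those of the other. Without Dnmt3a, the called genes had a median absolute log2 change of 0.69, against 0.082 over all genes tested. They were chosen on these same 1 day values, so a larger median follows from the choice. With Dnmt3a, the median of the 15 was 0.733 at 1 day and 0.612 at 5 days. DESeq2 called 59 genes, the 15 among them. The genes that rose were Dnmt3a, Penk, Net1, Htr2a, Calb1, Ypel2, Grem1, Ecm2 and Ogn, and those that fell were Umodl1, Acta1, Hkdc1, Ier5l, Hunk and Extl1. Calls of Dnmt3a, Net1, Penk, Umodl1, Acta1 and Ecm2 held in each of 17 alternative fits. Without Control replicate 2 the count of called genes was 6, and without Dnmt3a2 replicate 3 it was 7.

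**Figure D1:**
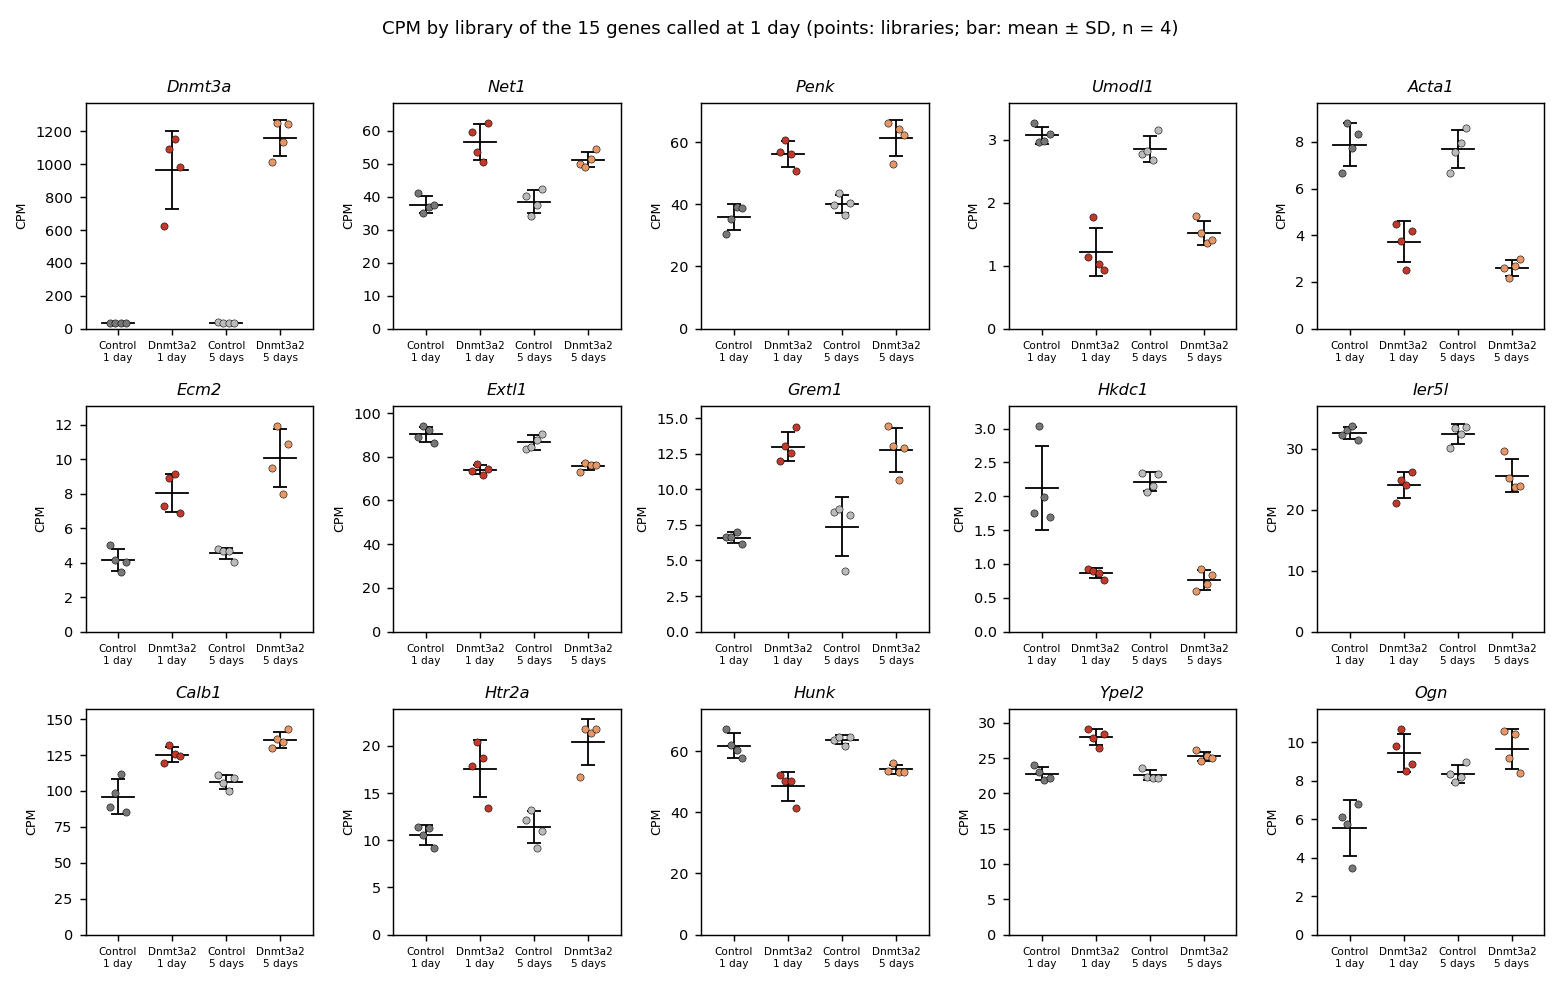
CPM by library (vertical axes, each from 0) of the 15 genes called at 1 day, for Control and Dnmt3a2 at 1 day and at 5 days (horizontal axes). Points are libraries, lines the mean ± SD of 4. In each of the 15 panels the 1 day groups do not overlap, and at 5 days the groups overlap for Ogn alone.

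Among genes of neuronal signalling, Penk and Htr2a rose. Penk (ENSMUSG00000045573, chromosome 4, 4133531 to 4138819, minus strand) encodes the precursor of the enkephalins, opioid peptides released by neurons. Penk stood at 30.3, 35.4, 39.1 and 38.7 CPM in Control replicates 1 to 4 and at 56.7, 60.8, 56.3 and 50.6 CPM in Dnmt3a2 replicates 1 to 4. All 4 Dnmt3a2 libraries exceeded the highest Control library, and the increase was 1.56-fold (log2 fold change 0.65, SE 0.08, edgeR adjusted p = 0.00128). Penk was the only called gene of 14 tested opioid peptide, receptor and processing genes, of which 7 lay above 0 (median log2 fold change 0.036, 0.008 without Control replicate 2 to 0.067 without Dnmt3a2 replicate 2). Pnoc, the nociceptin precursor, went the other way in value (log2 -0.28, unadjusted p = 0.0377), and the opioid receptor gene Oprk1 was at log2 0.72 with an edgeR adjusted p = 0.76. Penk is also a marker of striatal neurons, and of 19 tested striatal markers it was the only one called, with 10 of the 19 above 0 and a median of 0.013 (-0.008 without Dnmt3a2 replicate 4 to 0.111 without Dnmt3a2 replicate 2). Apart from Penk, 2 of them were higher and 3 lower at an unadjusted p under 0.05. With Penk this was 31.6% of the list, beside 7.17% of all genes. Ppp1r1b (DARPP-32) and Gnal, both of that list, had log2 fold changes of 0.26 and 0.19 (edgeR adjusted p = 0.431 and 0.343), and Gpr6, a receptor gene of the same list, of -0.86 (unadjusted p = 0.0137, edgeR adjusted p = 0.494).

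Htr2a (ENSMUSG00000034997, chromosome 14, 74640840 to 74709494, plus strand) encodes the serotonin 2A receptor, which couples to Gq. Htr2a stood at 11.4, 10.6, 11.3 and 9.12 CPM in Control replicates 1 to 4 and at 17.9, 20.4, 18.7 and 13.4 CPM in Dnmt3a2 replicates 1 to 4. Dnmt3a2 replicate 4 came closest to the Control range, and the groups did not overlap. The increase was 1.66-fold (log2 fold change 0.73, SE 0.13, edgeR adjusted p = 0.0253). Htr2a was the only call among 11 tested serotonin receptor genes, 7 of them above 0. Their median was 0.101 (0.006 without Control replicate 4 to 0.164 without Control replicate 1). With Htr2a, 3 were higher and 0 lower at an unadjusted p under 0.05 (27.3%, beside 7.17% of all genes). Htr1a, the inhibitory 1A receptor of pyramidal neurons, was at 34.3 to 41.7 CPM in Control and 40.2 to 50.5 CPM in Dnmt3a2 (log2 0.22, unadjusted p = 0.00478). Htr5b was at 6.59 to 7.91 CPM in Control and 7.05 to 10.4 CPM in Dnmt3a2 (log2 0.34, unadjusted p = 0.00842). For each of them the groups overlapped, and neither gene passed the adjusted threshold. The call of Htr2a ended without Control replicates 2, 3 or 4 or Dnmt3a2 replicates 1, 2 or 3 (edgeR adjusted p = 0.0583 to 0.11), without the 3 interferon-rich libraries (0.0573) and with the 8 libraries fitted alone (edgeR adjusted p = 0.0643).

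Net1 and Calb1, which act inside the cell, also rose. Net1 (ENSMUSG00000021215, chromosome 13, 3882018 to 3918220, minus strand) encodes a guanine nucleotide exchange factor, a protein that switches small GTPases on. Net1 stood at 41, 34.9, 36.9 and 37.4 CPM in Control replicates 1 to 4 and at 59.7, 53.4, 50.5 and 62.2 CPM in Dnmt3a2 replicates 1 to 4. The Dnmt3a2 values began 9.41 CPM above the highest Control value, and the increase was 1.5-fold (log2 fold change 0.59, SE 0.08, edgeR adjusted p = 0.00128). Calb1 (ENSMUSG00000028222, chromosome 4, 15881264 to 15908064, plus strand) encodes calbindin, a calcium buffer abundant in dentate granule cells. Calb1 stood at 88.5, 98.5, 112 and 85.1 CPM in Control replicates 1 to 4 and at 119, 132, 126 and 125 CPM in Dnmt3a2 replicates 1 to 4. Control replicate 3 was the highest of its group and still below every Dnmt3a2 library (log2 fold change 0.39, SE 0.07, edgeR adjusted p = 0.0241). Of 23 tested calcium-binding buffer and sensor genes 13 lay above 0 (median 0.014, -0.008 without Dnmt3a2 replicate 4 to 0.055 without Control replicate 4), and Calb1 alone was called. Hpcal1, a neuronal calcium sensor, was at log2 -0.25 (edgeR adjusted p = 0.371). The call of Calb1 ended without Control replicates 1, 2 or 4 or Dnmt3a2 replicates 2 or 3 (edgeR adjusted p = 0.0758 to 0.0933), without the 3 interferon-rich libraries (0.0783) and with the 8 libraries fitted alone (edgeR adjusted p = 0.256).

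Ypel2 (ENSMUSG00000018427, chromosome 11, 86936425 to 86993707, minus strand), a member of the Yippee-like family of zinc-binding proteins, showed the smallest rise among the called genes. Ypel2 stood at 24.1, 23.1, 21.9 and 22.1 CPM in Control replicates 1 to 4 and at 29.1, 27.9, 26.5 and 28.4 CPM in Dnmt3a2 replicates 1 to 4. The groups were separated by 2.44 CPM, or 1.23-fold on average (log2 fold change 0.29, SE 0.05, edgeR adjusted p = 0.037). This was the least stable of the 15 calls. It held in 6 of 17 alternatives and ended without Control replicates 2, 3 or 4 or Dnmt3a2 replicates 1, 2, 3 or 4 (edgeR adjusted p = 0.0708 to 0.138), without the 3 interferon-rich libraries (0.104), without the 2 choroid-rich libraries (0.118), without a low-count filter (0.0764) and with the 8 libraries fitted alone (0.338).

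Secreted and matrix proteins made up the rest of the genes that rose. Grem1 (ENSMUSG00000074934, chromosome 2, 113746164 to 113758646, minus strand) encodes gremlin, a secreted protein that binds bone morphogenetic proteins (BMPs) and keeps them from their receptors. Grem1 stood at 6.62, 6.67, 7.01 and 6.14 CPM in Control replicates 1 to 4 and at 12, 13.1, 12.5 and 14.4 CPM in Dnmt3a2 replicates 1 to 4. All Dnmt3a2 values were above every Control value, a 1.97-fold increase (log2 fold change 0.98, SE 0.16, edgeR adjusted p = 0.0113). The call ended without Control replicate 2 (edgeR adjusted p = 0.0811), without the 3 interferon-rich libraries (0.0687). Grem1 was the only called gene of 35 tested genes for BMP ligands, receptors, antagonists and SMADs. Of the 35, 26 lay above 0 (median 0.063, 0.049 without Control replicate 4 to 0.083 without Dnmt3a2 replicate 3), and 6 higher and 1 lower reached an unadjusted p under 0.05, beside 3.88% and 3.3% of all genes. DESeq2 also called Fst and Chrd. Fst, follistatin, which neutralises activins, was at 1.98, 2.76, 2.3 and 1.49 CPM in Control and 3.54, 4.41, 3.72 and 4.02 CPM in Dnmt3a2, without overlap (log2 fold change 0.88, SE 0.20, edgeR adjusted p = 0.152). Chrd, chordin, was at 33.6 to 43.6 CPM in Control and 44.3 to 49.7 CPM in Dnmt3a2 (log2 fold change 0.32, SE 0.07, edgeR adjusted p = 0.156), also without overlap, and it overlaps Thpo on the opposite strand. Sostdc1, another BMP antagonist and a choroid plexus marker, was at log2 0.76 (edgeR adjusted p = 0.82). The receptor gene Acvr2a was at 29.8 to 32.9 CPM in Control and 33 to 40.4 CPM in Dnmt3a2 (log2 0.21, unadjusted p = 0.00708), and it overlaps Orc4 on the opposite strand. Smad6, an inhibitory SMAD, had the lowest value of the list, log2 -0.31.

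Ecm2 and Ogn encode small leucine-rich proteins of the extracellular matrix and are neighbours on chromosome 13, both within Cenpp on the opposite strand. No source used here says whether counting kept the strands apart, so their counts are uncertain, although Cenpp averaged 0.84 CPM. Ecm2 stood at 5.01, 4.14, 3.47 and 4.03 CPM in Control replicates 1 to 4 and at 7.32, 8.89, 9.13 and 6.9 CPM in Dnmt3a2 replicates 1 to 4. The lowest Dnmt3a2 library was 1.89 CPM above the highest Control library, and counts were 1.93-fold higher (log2 fold change 0.95, SE 0.14, edgeR adjusted p = 0.00281, ENSMUSG00000043631, 49504810 to 49532789). Ogn stood at 6.13, 5.76, 3.47 and 6.77 CPM in Control replicates 1 to 4 and at 9.79, 10.7, 8.47 and 8.84 CPM in Dnmt3a2 replicates 1 to 4. Control replicate 3 was the lowest and replicate 4 the highest of its group, and the Dnmt3a2 values were all higher (log2 fold change 0.77, SE 0.15, edgeR adjusted p = 0.0379, ENSMUSG00000021390, 49608046 to 49624501). The call of Ogn ended without Control replicates 1 or 2 or Dnmt3a2 replicates 1, 2 or 3 (edgeR adjusted p = 0.0548 to 0.123), without the 3 interferon-rich libraries (0.104), without the 2 choroid-rich libraries (0.0783) and with the 8 libraries fitted alone (0.338). Aspn, asporin, lies in the same interval and was at 0.447 to 1.05 CPM in Control and 0.586 to 1.68 CPM in Dnmt3a2 (log2 0.71, unadjusted p = 0.0364), with overlap between the groups. Among 11 tested genes of the family, Ecm2 and Ogn were called and 7 lay above 0. Their median was 0.083 (0.066 without Dnmt3a2 replicate 2 to 0.157 without Control replicate 2). With Ecm2 and Ogn, 3 were higher and 1 lower at an unadjusted p under 0.05 (36.4%, beside 7.17% of all genes). Podn, podocan, was at log2 -0.47 (edgeR adjusted p = 0.63). It overlaps Scp2 on the same strand (61.6 CPM), so its counts are uncertain. Ogn is also a fibroblast gene: of 22 tested markers of meninges and fibroblasts, 7 lay above 0, the median was -0.154 (-0.249 without Control replicate 3 to -0.047 without Control replicate 4), and Ogn alone was called.

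The largest falls were in weakly expressed genes. Umodl1 (ENSMUSG00000054134, chromosome 17, 30954640 to 31010710, plus strand) encodes a uromodulin-like membrane protein. Umodl1 stood at 3.26, 2.97, 2.99 and 3.09 CPM in Control replicates 1 to 4 and at 1.13, 1.77, 1.03 and 0.936 CPM in Dnmt3a2 replicates 1 to 4. Each Dnmt3a2 library lay below the lowest Control library, by at least 1.2 CPM (log2 fold change -1.33, SE 0.18, edgeR adjusted p = 0.00196). Acta1 (ENSMUSG00000031972, chromosome 8, 123891769 to 123894751, minus strand) encodes skeletal muscle alpha-actin. Acta1 stood at 6.66, 8.8, 7.73 and 8.36 CPM in Control replicates 1 to 4 and at 4.47, 3.75, 2.51 and 4.19 CPM in Dnmt3a2 replicates 1 to 4. Dnmt3a2 replicate 1 was the highest of its group and replicate 3 the lowest, and all were below the Control values (log2 fold change -1.08, SE 0.15, edgeR adjusted p = 0.00214). Acta1 resembles other actin genes and overlaps Gm20388 on the opposite strand (16.4 CPM), so its counts are uncertain. Of 13 tested actin and muscle genes Acta1 alone was called, and 7 lay above 0 (median 0.019, -0.063 without Dnmt3a2 replicate 2 to 0.063 without Control replicate 4). Myl4, an atrial myosin light chain, was at 1.24 to 1.58 CPM in Control and 0.486 to 1.17 CPM in Dnmt3a2 (log2 -0.62, unadjusted p = 0.022), without overlap.

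Hkdc1 (ENSMUSG00000020080, chromosome 10, 62383137 to 62422491, minus strand) encodes a member of the hexokinase family, the enzymes that phosphorylate glucose. Hkdc1 stood at 1.75, 3.03, 1.99 and 1.7 CPM in Control replicates 1 to 4 and at 0.927, 0.902, 0.861 and 0.763 CPM in Dnmt3a2 replicates 1 to 4. Control replicate 2 was the highest, and the 4 Dnmt3a2 libraries lay within 0.165 CPM of each other (log2 fold change -1.29, SE 0.21, edgeR adjusted p = 0.0118). Leaving out 1 library ended the call without Control replicate 2 or Dnmt3a2 replicate 3 (edgeR adjusted p = 0.0709 to 0.0819), as did fitting the 8 libraries alone (0.183). Of 24 tested hexokinase and glycolysis genes Hkdc1 alone was called and 8 lay above 0, with a median of -0.036 (-0.043 without Control replicate 1 to -0.022 without Dnmt3a2 replicate 1). Pfkfb4, which sets the level of a phosphofructokinase activator, was at 7.04 to 8.43 CPM in Control and 5.17 to 6.42 CPM in Dnmt3a2, without overlap (log2 -0.42, unadjusted p = 0.00247).

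The other 3 genes that fell did so by smaller amounts and from higher levels. Extl1 (ENSMUSG00000028838, chromosome 4, 134356372 to 134383850, minus strand) encodes a glycosyltransferase of the exostosin family, which builds heparan sulphate chains. Extl1 stood at 89.2, 93.9, 92.1 and 86.2 CPM in Control replicates 1 to 4 and at 73.5, 76.6, 71.6 and 74.5 CPM in Dnmt3a2 replicates 1 to 4. The spread within each group was small and the groups were 9.54 CPM apart (log2 fold change -0.29, SE 0.05, edgeR adjusted p = 0.0113). The call ended without Control replicate 2 or Dnmt3a2 replicate 3 (edgeR adjusted p = 0.0709 to 0.0819), without the 3 interferon-rich libraries (0.0573) and with the 8 libraries fitted alone (0.235). Of 28 tested genes of heparan sulphate synthesis and editing, 5 lay above 0 and 23 below, with a median of -0.082 (-0.106 without Control replicate 4 to -0.061 without Control replicate 1). Extl1 was the only one called. At an unadjusted p under 0.05, 4 were lower (14.3%, beside 3.3% of all genes) and 0 higher. Sulf2, a sulphatase that edits the chains, was at 136 to 167 CPM in Control and 108 to 145 CPM in Dnmt3a2 (log2 -0.24, unadjusted p = 0.00959), with Ncoa3 overlapping on the opposite strand, and Hs6st1, a 6-O-sulphotransferase, at 84.5 to 92.1 CPM in Control and 77.2 to 82.5 CPM in Dnmt3a2 (log2 -0.13, unadjusted p = 0.0289). At 5 days the same list had 14 of 28 above 0 and a median of 0.005.

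Ier5l (ENSMUSG00000089762, chromosome 2, 30471537 to 30474219, minus strand) is named after the immediate early response gene Ier5, to which it is related. Ier5l stood at 32.2, 33, 33.6 and 31.4 CPM in Control replicates 1 to 4 and at 21.1, 24.8, 24 and 26.1 CPM in Dnmt3a2 replicates 1 to 4. Dnmt3a2 replicate 1 was the lowest library (log2 fold change -0.44, SE 0.08, edgeR adjusted p = 0.0175). Hunk (ENSMUSG00000053414, chromosome 16, 90386013 to 90499553, plus strand) encodes a serine/threonine kinase related to AMPK. Hunk stood at 67.1, 62.1, 60.4 and 57.7 CPM in Control replicates 1 to 4 and at 52.1, 50.3, 50.3 and 41.4 CPM in Dnmt3a2 replicates 1 to 4. Dnmt3a2 replicate 4 lay below the other 3, and the highest Dnmt3a2 library was 5.58 CPM below the lowest Control library (log2 fold change -0.35, SE 0.06, edgeR adjusted p = 0.033). Calls ended for Ier5l without Control replicates 2 or 3 or Dnmt3a2 replicates 1 or 3 (edgeR adjusted p = 0.0559 to 0.0819) and for Hunk without Control replicates 1, 2 or 3 or Dnmt3a2 replicates 2 or 3 (edgeR adjusted p = 0.0608 to 0.12), without the 3 interferon-rich libraries (0.0762), and with the 8 libraries fitted alone (0.0747 and 0.338). Among 20 tested AMPK subunit and AMPK-related kinase genes Hunk alone was called, with 10 above 0. Prkab2, an AMPK beta subunit, was at 23.5 to 27.8 CPM in Control and 27.8 to 35.3 CPM in Dnmt3a2 (log2 0.22, unadjusted p = 0.0101).

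**Figure D2:**
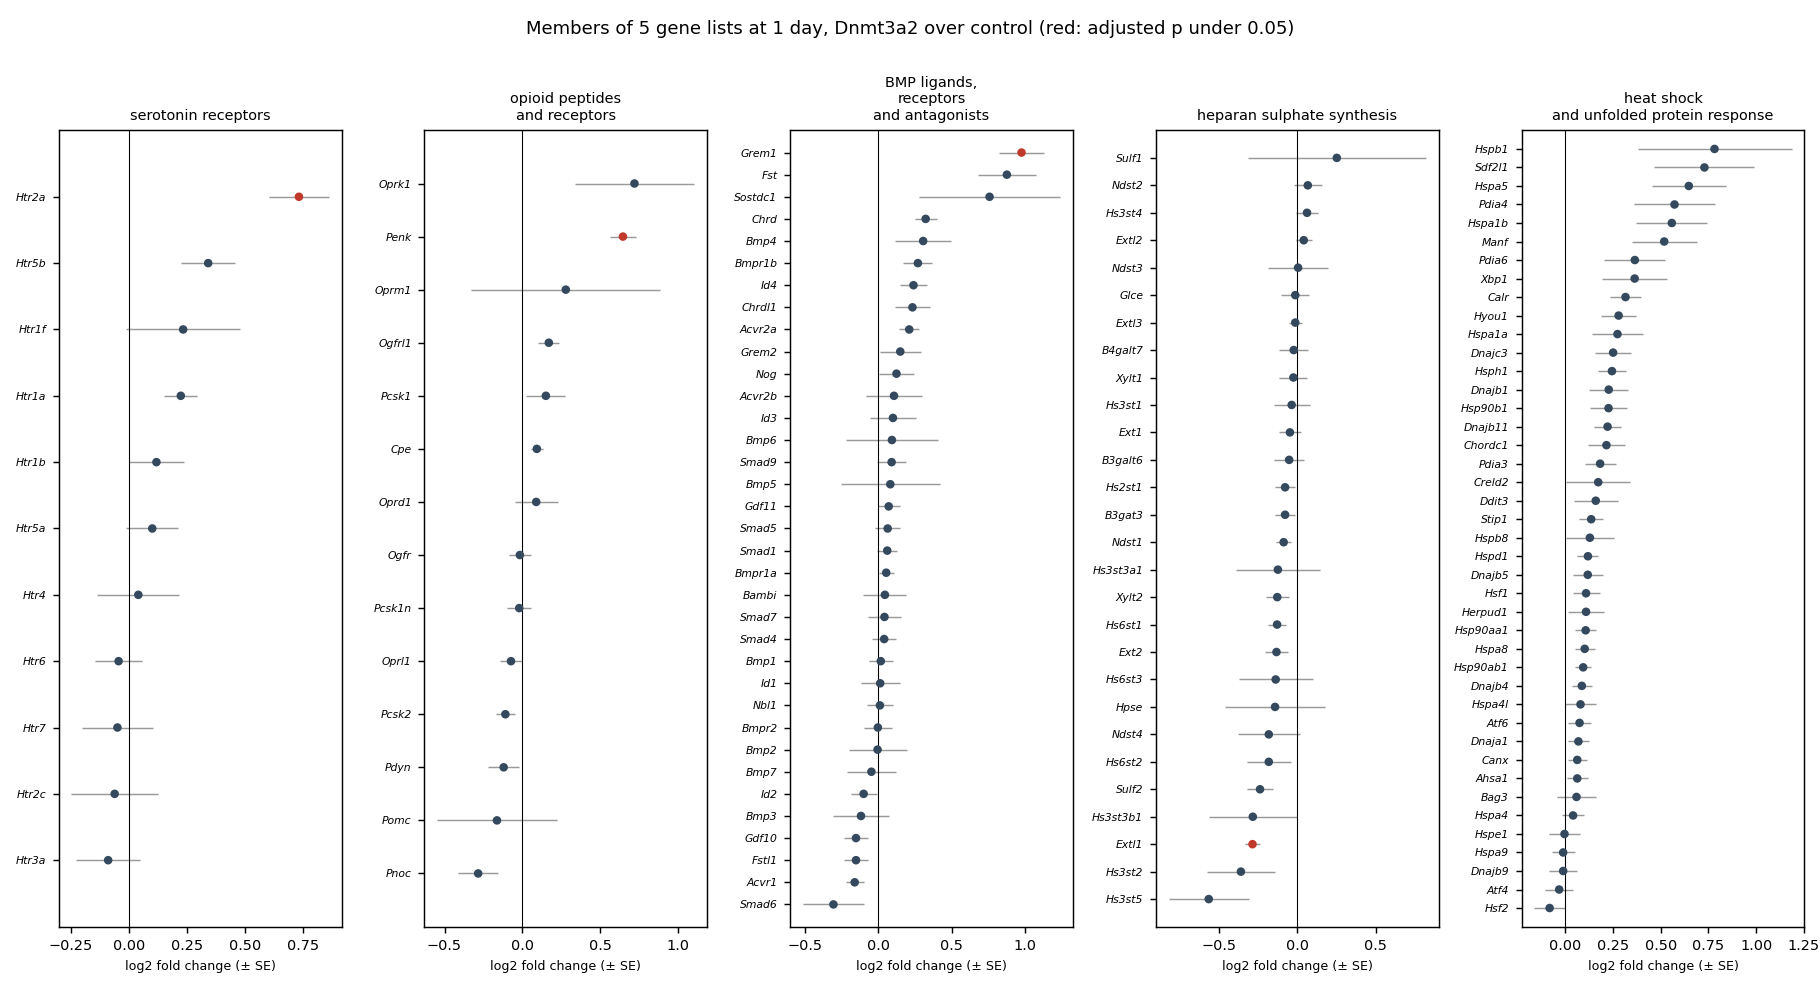
Log2 fold change of Dnmt3a2 over control at 1 day (horizontal axes, ± SE) for every tested member of 5 gene lists (vertical axes), with called genes in red. Htr2a, Penk, Grem1 and Extl1 are the only red points in their panels, and the heat shock panel has none.

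CG dinucleotides, the main substrate of Dnmt3a, were counted in the 250 bases before the RefSeq start of each gene (build GRCm38.p6), where 98.8% of 12203 promoters of tested genes hold at least 1. CG reads the same on both strands. Promoter entries matched 13 of the 15 called genes. The median count was 15 over all 12203 (quartiles 8.0 and 22.0, range 0 to 56). It was 4.5 over 6 genes that rose other than Dnmt3a (3 to 24) and 8.5 over the 6 that fell (6 to 34). Counts were 3 in Ecm2, 4 in Htr2a and Ogn, 5 in Net1, 21 in Ypel2 and 24 in Grem1, and 6 in Umodl1 and Hkdc1, 8 in Extl1, 9 in Acta1, 20 in Ier5l and 34 in Hunk. The windows of Extl1 and Hunk lie inside the annotated genes. Counts below 15 and of 20 or more were found on both sides, while those of 3 to 5 were all in genes that rose. This describes sequence only, since methylation was not measured in these files. The sequences below show, of the called genes whose window holds at most 30 bases of the annotated gene, those with the fewest and the most CG among genes that rose (Ecm2, Grem1) and that fell (Acta1, Ier5l). They run 5′ to 3′ on the gene's strand, with CG in capitals.

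Ecm2, chr13:49504560-49504809, plus strand: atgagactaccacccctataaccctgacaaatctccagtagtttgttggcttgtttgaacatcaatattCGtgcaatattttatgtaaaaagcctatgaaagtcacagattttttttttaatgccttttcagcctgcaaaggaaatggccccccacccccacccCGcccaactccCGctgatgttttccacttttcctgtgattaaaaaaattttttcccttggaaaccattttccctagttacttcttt

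Grem1, chr2:113758649-113758898, minus strand: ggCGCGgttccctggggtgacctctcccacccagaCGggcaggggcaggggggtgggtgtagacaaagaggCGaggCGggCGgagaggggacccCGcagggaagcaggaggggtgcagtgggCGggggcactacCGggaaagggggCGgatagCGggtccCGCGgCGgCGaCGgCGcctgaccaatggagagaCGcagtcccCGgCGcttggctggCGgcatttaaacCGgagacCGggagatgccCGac

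Acta1, chr8:123894776-123895025, minus strand: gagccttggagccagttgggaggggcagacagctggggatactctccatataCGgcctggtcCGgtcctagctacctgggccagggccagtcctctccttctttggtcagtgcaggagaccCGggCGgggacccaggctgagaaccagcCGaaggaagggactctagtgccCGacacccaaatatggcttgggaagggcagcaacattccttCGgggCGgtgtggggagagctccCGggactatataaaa

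Ier5l, chr2:30474200-30474449, minus strand: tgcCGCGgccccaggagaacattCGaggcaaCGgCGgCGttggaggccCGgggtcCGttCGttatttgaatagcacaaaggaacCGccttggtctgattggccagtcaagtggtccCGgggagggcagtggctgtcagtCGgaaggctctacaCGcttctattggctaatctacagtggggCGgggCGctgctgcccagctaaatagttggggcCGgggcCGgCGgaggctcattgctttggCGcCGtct

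Some genes lay just outside the threshold. The 10 with the smallest p among established genes above 1 CPM had edgeR adjusted p = 0.0544 to 0.152, against 0.0379 for Ogn, the last called gene. Values were higher for Sntb2, Pacsin2, Emx2, Car4 and Fst and lower for Minar2, Cmbl, Arl4c, Ntn3 and C1ql2. Ntn3 overlaps Tbc1d24 on the same strand (51.2 CPM), so its counts are uncertain. C1ql2 stood at 156, 166, 204 and 174 CPM in Control replicates 1 to 4 and at 153, 136, 125 and 127 CPM in Dnmt3a2 replicates 1 to 4. C1ql2 is a synaptic organiser secreted by the mossy fibres of granule cells, and its highest Dnmt3a2 value lay 3.24 CPM below its lowest Control value (log2 fold change -0.37, SE 0.08, edgeR adjusted p = 0.14). Cmbl stood at 4.22, 4.28, 3.71 and 5.17 CPM in Control replicates 1 to 4 and at 2.78, 2.01, 2.31 and 3.12 CPM in Dnmt3a2 replicates 1 to 4. Cmbl, a hydrolase gene, also showed no overlap (log2 fold change -0.76, SE 0.16, edgeR adjusted p = 0.094). Emx2, a homeobox factor of the dorsal telencephalon, was at 14.1 to 16 CPM in Control and 18 to 20.2 CPM in Dnmt3a2 (log2 fold change 0.36, SE 0.08, edgeR adjusted p = 0.0906), and it overlaps the antisense gene Emx2os (12 CPM), with which its reads may be shared. Car4, a membrane carbonic anhydrase, was at 26.6 to 35 CPM in Control and 37.1 to 40.2 CPM in Dnmt3a2 (log2 fold change 0.33, SE 0.07, edgeR adjusted p = 0.123).

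The 8 libraries of 5 days, none of which entered the groups compared at 1 day, gave a second reading of the same genes. The 2 contrasts share the residual spread of 1 fit. All 15 genes called at 1 day lay on the same side at 5 days, 10 of them passed the adjusted threshold there (0.32% of all genes did), and in 14 the groups did not overlap (6.29% of all genes). Dnmt3a, which the virus delivers at both days, is included in each of these counts. Over all genes tested, 10591 of 16899 (62.7%) had the same direction at both days. Log2 fold changes at 5 days were 0.61 for Penk, 0.84 for Htr2a and 0.79 for Grem1 (edgeR adjusted p = 0.00113, 0.00299 and 0.0289). The falls of Umodl1, Acta1 and Hkdc1 came to log2 -0.91 for Umodl1, -1.56 for Acta1 and -1.53 for Hkdc1, all called (edgeR adjusted p = 0.0289, 2.5e-05 and 0.00119). Extl1, Ier5l, Hunk, Ypel2 and Ogn did not pass the adjusted threshold at 5 days, where their log2 fold changes were -0.20, -0.34, -0.24, 0.16 and 0.21 (edgeR adjusted p = 0.08, 0.0544, 0.162, 0.358 and 0.807).

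Ogn was the gene of the 15 whose 5 day groups overlapped. Its libraries then held 8.35, 7.9, 8.17 and 8.98 CPM in Control and 10.6, 9.15, 10.4 and 8.37 CPM in Dnmt3a2. The Dnmt3a2 levels resembled those of 1 day (9.79, 10.7, 8.47 and 8.84 CPM), while the Control levels were above those of 1 day (6.13, 5.76, 3.47 and 6.77 CPM). The difference between the days' effects was -0.56 (SE 0.20, unadjusted p = 0.0113, edgeR adjusted p = 1). Acta1 had the next smallest p of the called genes, with a difference of -0.48 (SE 0.22, unadjusted p = 0.0376). By edgeR the Dnmt3a2 effect differed between days for 0 of 16899 genes (0%), 360 (2.13%) had an unadjusted p under 0.05, and DESeq2 called 1 gene (0.00592%), Gm10288. Among the smallest p values of the difference were those of Gm2974, Hes1, Mgat2 and BC028528. Hes1, a Notch-responsive repressor, was at log2 0.30 at 1 day and 0.82 at 5 days (difference 0.52, SE 0.14, unadjusted p = 0.00138). Gm2974 went from -0.91 to 0.89 at levels of 0.208 to 1.24 CPM.

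**Figure D3:**
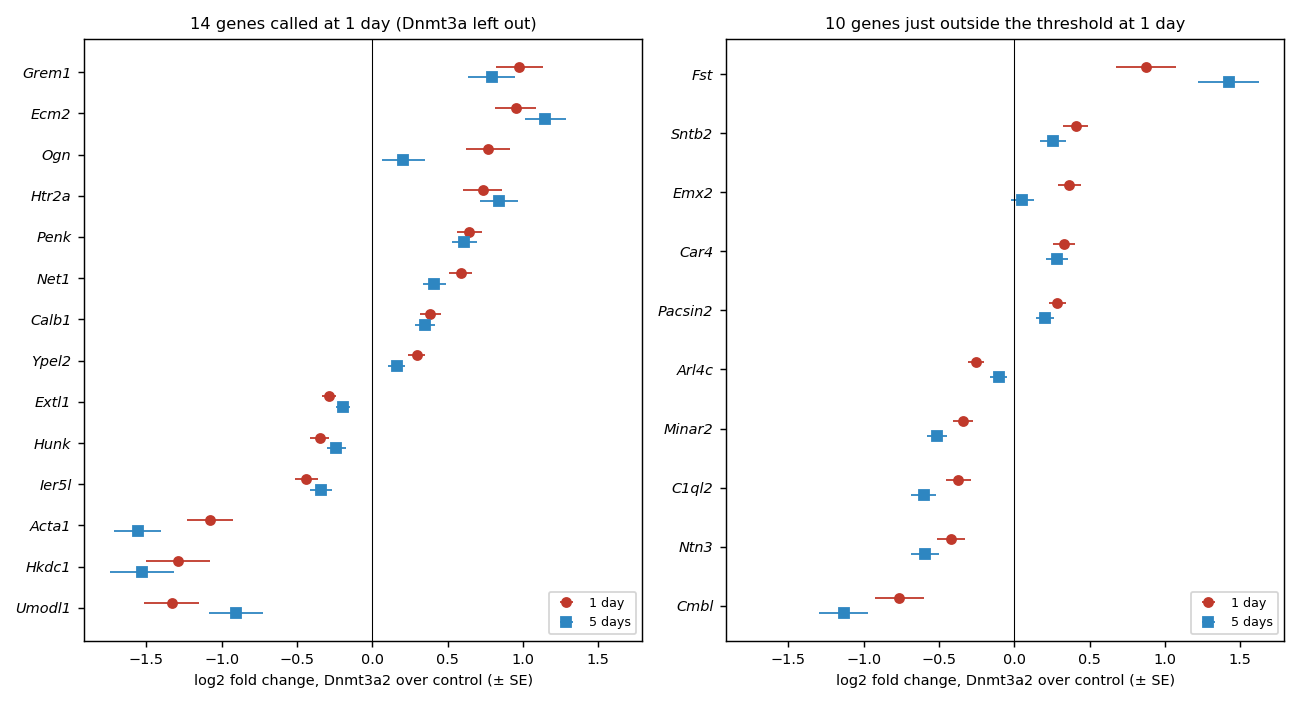
Log2 fold change of Dnmt3a2 over control at 1 day (red circles) and 5 days (blue squares), ± SE, for 14 genes called at 1 day (left, Dnmt3a left out) and the 10 genes just outside the threshold (right). Every gene lies on one side of 0 at both days, and Ogn and Emx2 are much nearer 0 at 5 days.

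Read the other way, the 54 genes called at 5 days gave a set for the 1 day libraries. It was chosen on the 5 day contrast, but the residual spread of that fit came from the libraries of both days. The p-values of the 2 days are therefore not independent. All 54 had the same direction at 1 day, 48 of them (88.9%) reached an unadjusted p under 0.05 there, beside 7.17% of all genes, and 33 (61.1%) showed no overlap, beside 3.43%. At 1 day 10 of the 54 were called. The delivered gene Dnmt3a is again included in each of these counts. The 54 were chosen on their 5 day values: their median absolute log2 change was 0.366 at 1 day and 0.596 at 5 days, while that of all genes was 0.082 at each. Of 25 genes higher at 5 days, 24 had an unadjusted p under 0.05 at 1 day, and of 29 lower ones, also 24. Frem3, an extracellular matrix protein of basement membranes, stood at 0.889, 0.674, 0.721 and 0.867 CPM in Control replicates 1 to 4 and 1.79, 1.15, 2.24 and 2.04 CPM in Dnmt3a2 replicates 1 to 4 at 1 day. Its log2 fold changes were 1.19 at 1 day and 1.77 at 5 days, with no overlap at 1 day and an edgeR adjusted p = 0.157 there. Fst had log2 fold changes of 0.88 at 1 day and 1.43 at 5 days. Cpne7, a phospholipid-binding copine that overlaps Gm20388 on the same strand, was at 0.55 at 1 day and 1.11 at 5 days, and its groups overlapped at 1 day through Control replicate 4 (81.7 CPM) and Dnmt3a2 replicate 1 (73.2 CPM). Camk2a, which encodes a calcium-activated kinase of the postsynapse, was at -0.06 at 1 day and -0.21 at 5 days (unadjusted p = 0.223 at 1 day). Frem3, Cpne7 and Camk2a were picked for mention after their values were seen. In 17 alternative fits the same direction held in 54 of 54 genes, except that 53 of 54 did without Control replicate 4 and that 53 genes, all in the same direction, remained to be tested at a mean CPM of at least 1.

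Among genes that follow neuronal activity, 1 immediate early and 1 late gene were called. Among 35 tested immediate early genes Ier5l, which fell, was the only one called. Of the 35, 16 lay above 0, with a median of -0.02. At an unadjusted p under 0.05, 3 were higher and 2 lower (14.3%, beside 7.17% of all genes). With 1 library left out, the median ran from -0.098 with 9 of 35 above 0 (without Dnmt3a2 replicate 4) to 0.041 with 20 of 35 above 0 (without Dnmt3a2 replicate 2). Egr2 was at 0.653 to 1.11 CPM in Control and 0.833 to 4.82 CPM in Dnmt3a2, highest in replicate 4 (log2 1.32, edgeR adjusted p = 0.3985). Ier3 was at 2.27 to 3.61 CPM in Control and 1.44 to 2.18 CPM in Dnmt3a2, without overlap (log2 -0.54, edgeR adjusted p = 0.458). Arc and Fos, induced by strong synaptic activity, varied within groups. Arc, Fos and Npas4 were picked after their values were seen. Arc stood at 175, 134, 119 and 244 CPM in Control replicates 1 to 4 and at 137, 112, 148 and 403 CPM in Dnmt3a2 replicates 1 to 4. Dnmt3a2 replicate 4 stood alone at the top of its group, and the log2 fold change was 0.25 (SE 0.36, edgeR adjusted p = 0.934). Fos was at 4.71 to 8.02 CPM in Control and 4.34 to 10.6 CPM in Dnmt3a2 (log2 0.07, edgeR adjusted p = 0.984) and Npas4 at 3.99 to 7.04 CPM in Control and 3.61 to 7.73 CPM in Dnmt3a2 (log2 -0.04, edgeR adjusted p = 0.99). Jun, a subunit of AP-1, was at 122, 127, 135 and 114 CPM in Control and 142, 148, 137 and 155 CPM in Dnmt3a2, without overlap but not called (log2 fold change 0.22, SE 0.06, edgeR adjusted p = 0.218), and it overlaps Junos on the opposite strand. Of 28 tested late activity-regulated genes, Penk alone was called, 15 lay above 0 and the median was 0.009 (-0.024 without Control replicate 4 to 0.031 without Dnmt3a2 replicate 4). Inhba, the activin A subunit that follistatin binds, was at 5.29 to 6 CPM in Control and 6.69 to 8 CPM in Dnmt3a2, without overlap (log2 fold change 0.45, SE 0.12, edgeR adjusted p = 0.264), and it overlaps B230303A05Rik on the opposite strand.

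No synaptic list held a called gene. By edgeR, 0 of 33 glutamate receptor and auxiliary genes passed, with 20 above 0 and 4 at an unadjusted p under 0.05 (12.1%, beside 7.17% of all genes). Likewise 0 of 25 inhibitory synapse genes passed (12 above 0, 1 or 4% at an unadjusted p under 0.05) and 0 of 40 potassium channel genes (19 above 0, 3 or 7.5%). Of 39 postsynaptic scaffold and kinase genes 0 passed, with 25 above 0. At an unadjusted p under 0.05, 6 of these 39 were higher (15.4%, beside 3.88% of all genes) and 0 lower. DESeq2 called no member of these lists either. Medians with 1 library left out were lowest without Control replicate 4 in each list. They ran from -0.013 to 0.046 for glutamate receptor genes and from -0.047 to 0.016 for inhibitory synapse genes. For scaffold and kinase genes they ran from 0.006 to 0.046, and for potassium channel genes from -0.048 to 0.009. Members nearest to the threshold were Gabra2, the alpha 2 subunit of the GABA-A receptor, at 206 to 227 CPM in Control and 233 to 266 CPM in Dnmt3a2 (log2 fold change 0.21, SE 0.06, edgeR adjusted p = 0.244), Cacng2 (stargazin, an AMPA receptor partner) at log2 0.19 (edgeR adjusted p = 0.373) and the scaffold gene Dlg2 at log2 0.14 (edgeR adjusted p = 0.373). Cacng2 and Dlg2 each overlap a predicted transcript.

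Stress-related genes lay higher in parts of the Dnmt3a2 group. By edgeR and DESeq2, 0 heat shock or unfolded protein response genes were called, but 37 of 42 lay above 0, the median was 0.132, and 18 were higher at an unadjusted p under 0.05 (42.9%, beside 3.88% of all genes). Scores were high in 2 libraries. The list score, the mean log2 CPM of the members relative to all 16 libraries, was 0.38, -0.08, -0.01 and 0.23 in Dnmt3a2 replicates 1 to 4 and -0.07 to -0.04 in the Control libraries. Hspa5 stood at 109, 109.8, 109 and 96.6 CPM in Control replicates 1 to 4 and at 252, 111, 122 and 179.8 CPM in Dnmt3a2 replicates 1 to 4. Hspa5, the chaperone BiP of the endoplasmic reticulum, was thus high in Dnmt3a2 replicates 1 and 4 (log2 fold change 0.65, SE 0.19, edgeR adjusted p = 0.417). Calr, calreticulin, was at 311 to 338 CPM in Control and 342 to 509.6 CPM in Dnmt3a2 (log2 fold change 0.31, SE 0.08, edgeR adjusted p = 0.239). With 1 library left out, the median ran from 0.085 with 38 of 42 above 0 (without Dnmt3a2 replicate 1) to 0.214 with 39 of 42 above 0 (without Dnmt3a2 replicate 2), and at 5 days it was 0.043 with 28 above 0. Of 32 tested glucocorticoid-responsive genes 0 were called by edgeR and DESeq2, 5 (15.6%) reached an unadjusted p under 0.05 and 23 lay above 0 (median 0.112, 0.009 without Dnmt3a2 replicate 4 to 0.154 without Dnmt3a2 replicate 2). Fkbp5, a chaperone induced by corticosterone, was at 41.3 to 48 CPM in Control and 47.7 to 61.6 CPM in Dnmt3a2 (edgeR adjusted p = 0.386).

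Interferon response and antigen presentation genes, which mark antiviral and inflammatory signalling, were above 0 in 54 of 61 cases with a median of 0.274. By edgeR and DESeq2, 0 members were called, and 3 (4.92%) reached an unadjusted p under 0.05. With 1 library left out, the median ran from 0.054 with 34 of 61 above 0 (without Dnmt3a2 replicate 1) to 0.61 with 60 of 61 above 0 (without Control replicate 1). Without the 3 interferon-rich libraries it was 0.295, with 51 of 59 above 0. Scores in Control replicates 1 to 4 were 0.56, -0.37, -0.45 and -0.20, and in Dnmt3a2 replicates 1 to 4 they were 0.79, 0.06, 0.13 and -0.11, so replicate 1 was high in both groups. Ifit1 was at 3, 1.08, 1.44 and 1.8 CPM in Control and 4.54, 3.23, 4.17 and 3.29 CPM in Dnmt3a2, without overlap (edgeR adjusted p = 0.629). Markers of immune cells from blood followed replicate 1 too, at 1.13 in Control and 1.75 in Dnmt3a2, with the other libraries at -0.75 to 0.14. Their median was 0.665 over 10 tested genes, with 8 above 0. With 1 library left out, the median ran from -0.106 with 3 of 10 above 0 (without Dnmt3a2 replicate 1) to 1.33 with 10 of 10 above 0 (without Control replicate 1), and without the 3 interferon-rich libraries it was 0.631, with 8 of 10 above 0.

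Markers of several cell types in the dissection differed mostly by library. All 25 choroid plexus markers tested were above 0 (median 1.047), with 0 called by edgeR or DESeq2 and 0 at an unadjusted p under 0.05. Their summed CPM was 231.6 to 303 in Control and 230.7 to 1389 in Dnmt3a2, and the median ran from 0.109 without Dnmt3a2 replicate 1 to 1.37 without Dnmt3a2 replicate 2. Ependymal markers had a median of 0.131, with 14 of 20 above 0. Their median ran from -0.351 with 2 of 20 above 0 (without Dnmt3a2 replicate 1) to 0.366 with 17 of 20 above 0 (without Dnmt3a2 replicate 4). Oligodendrocyte markers lay above 0 in 28 of 33 (median 0.123). The oligodendrocyte median ran from 0.002 with 17 of 33 above 0 (without Dnmt3a2 replicate 1) to 0.225 with 33 of 33 above 0 (without Dnmt3a2 replicate 4). Microglial markers lay lower, with 5 of 24 above 0 (median -0.112). The microglial median ran from -0.225 with 0 of 24 above 0 (without Dnmt3a2 replicate 1) to -0.009 with 11 of 24 above 0 (without Dnmt3a2 replicate 4). P2ry12, the purinergic receptor of resting microglia, was at 32.9 to 41.4 CPM in Control and 24.2 to 35 CPM in Dnmt3a2 (log2 fold change -0.28, SE 0.10, edgeR adjusted p = 0.494). At 5 days 18 of the 24 microglial markers were above 0. Astrocyte markers were above 0 in 26 of 28, and in 22 to 26 with 1 library left out. Their median was 0.116 (0.065 without Dnmt3a2 replicate 4 to 0.16 without Dnmt3a2 replicate 2, and 0.064 without the 3 interferon-rich libraries). None was called, and 7 were higher (25%, beside 3.88% of all genes) and 0 lower at an unadjusted p under 0.05. Their scores were 0.17, -0.01, 0.05 and 0.17 in Dnmt3a2 replicates 1 to 4 and -0.05 to 0.04 in the Control libraries. Glul, glutamine synthetase, was at 1066 to 1188 CPM in Control and 1137 to 1543 CPM in Dnmt3a2 (log2 fold change 0.27, SE 0.08, edgeR adjusted p = 0.386). P2ry12 and Glul overlap Med12l and Teddm2 on the opposite strand. Apart from Calb1, Penk and Ogn, the 21 marker lists held no gene called by edgeR. Dnmt3a, Net1, Penk, Umodl1, Acta1 and Ecm2 remained called without the 2 choroid-rich libraries, without the 3 interferon-rich libraries and without Dnmt3a2 replicate 1, as did Hkdc1.

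**Figure D4:**
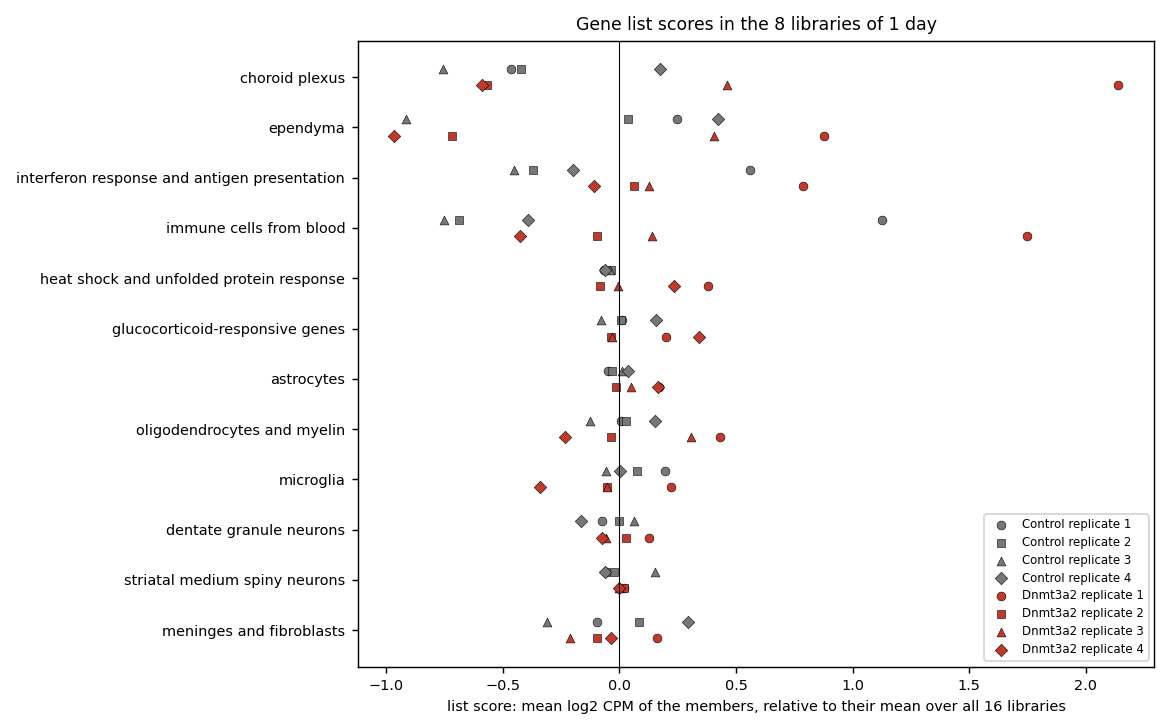
List scores (horizontal axis: mean log2 CPM of a list's members relative to their mean over all 16 libraries) for 12 gene lists (vertical axis) in the 8 libraries of 1 day. Grey symbols are Control and red symbols Dnmt3a2, with 1 symbol shape per replicate number. The circle of Dnmt3a2 replicate 1 lies far right for choroid plexus (2.14), and the circles of both replicates 1 lie right for immune cells from blood.

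Among hippocampal neurons, dentate granule markers lay above 0 in 15 of 21 (median 0.047, 0.037 without Dnmt3a2 replicate 1 to 0.104 without Control replicate 3), with Calb1 called higher, and C1ql2 called lower by DESeq2 but not by edgeR. CA1 markers lay above 0 in 7 of 17 (median -0.017, -0.064 without Control replicate 1 to 0.034 without Control replicate 3), with 0 called by edgeR or DESeq2 and 5 at an unadjusted p under 0.05, 2 higher and 3 lower (29.4%, beside 7.17% of all genes). CA3 and CA2 markers lay above 0 in 15 of 24 (median 0.067, 0.029 without Control replicate 3 to 0.101 without Dnmt3a2 replicate 2), with 0 called by edgeR and 3 (12.5%) at an unadjusted p under 0.05, and Cpne7 called by DESeq2 (edgeR adjusted p = 0.208). Markers of immature neurons and proliferating cells lay above 0 in 15 of 20 (median 0.107, 0.075 without Dnmt3a2 replicate 1 to 0.164 without Control replicate 2), with 0 called by edgeR or DESeq2 and 4 (20%) at an unadjusted p under 0.05. Among them Ccnd1, cyclin D1, was at 52.2 to 60.9 CPM in Control and 64.8 to 69 CPM in Dnmt3a2, without overlap between the groups and with LTO1 on the opposite strand (log2 fold change 0.22, SE 0.06, edgeR adjusted p = 0.249), and Sox11 was at 12 to 14 CPM in Control and 13.9 to 26.6 CPM in Dnmt3a2 (log2 fold change 0.57, SE 0.16, edgeR adjusted p = 0.326). Neocortex markers had a median of 0.007 (-0.073 without Dnmt3a2 replicate 2 to 0.028 without Control replicate 3), and Scnn1a of that list was at 20.6 to 24.2 CPM in Control and 16.8 to 19.3 CPM in Dnmt3a2, without overlap and called by DESeq2 but not by edgeR (log2 fold change -0.33, SE 0.08, edgeR adjusted p = 0.174).

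In gene groups whose expression is tied to DNA methylation in other settings, 0 genes were called by edgeR. Of 42 tested imprinted genes 0 were called, 22 lay above 0 and the median was 0.001 (-0.028 without Control replicate 4 to 0.025 without Control replicate 2). Grb10, an imprinted adaptor of insulin signalling, came nearest at 16.4 to 19 CPM in Control and 13.3 to 15.4 CPM in Dnmt3a2, without overlap (log2 fold change -0.27, SE 0.07, edgeR adjusted p = 0.218). Of 56 tested clustered protocadherins, 0 were called and 19 lay above 0 (median -0.033). Some of them, such as the alpha genes, share exons within their cluster, so their counts are uncertain. The protocadherin median ran from -0.1 with 16 of 56 above 0 (without Control replicate 4) to 0.005 with 28 of 56 above 0 (without Control replicate 1). Of 28 germline genes that promoter methylation keeps silent in somatic cells, 7 passed the low-count filter, 0 of them called, and 7 were at 0 in all 8 libraries. DESeq2 called 0 genes of these 3 lists. By edgeR 3 imprinted genes, 1 protocadherin and 0 germline genes had an unadjusted p under 0.05, or 7.14%, 1.79% and 0%, beside 7.17% of all genes.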

How the data were processed

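RNA from dorsal hippocampus was sequenced on a BGISEQ-500 from 500 ng of total RNA per library, per the labels' protocols. Trim Galore 0.6.4, kallisto 0.4.6, edgeR 3.17 and the build GRCm38.p6 are named in the submitters' processing notes. Annotation release, strand and the summing over transcripts were not given in the sources used here. The authors deposited estimated counts per gene (26.2% not whole), which were rounded before testing, and log2 CPM values for 16907 genes.

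Identifiers were named with GENCODE M21 (55144 of 55385). Genes were filtered by group (filterByExpr), scaled by TMM and tested with edgeR 4.0.16 (robust quasi-likelihood fit, R 4.3.3) over all 16 libraries in 4 groups, with contrasts at 1 day, at 5 days and between days. Calls needed an adjusted p (Benjamini-Hochberg over the 16899 genes tested) under 0.05. The pipeline was tested on simulated data. Alternatives used DESeq2 1.42.0, limma 3.58.1 (limma-trend), other filters and fewer libraries.

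Members and gene lists were chosen with earlier results of these data known. Named genes are those called, the 10 nearest to the threshold above 1 CPM, list members of smallest p, and the 5 of smallest p between days. Some results that these rules name are not reported here. Xist, Ddx3y, Kdm5d, Prox1, Wfs1, Fibcd1, Arc, Fos, Npas4, Oprk1, Sostdc1, Smad6, Frem3 and Camk2a were added after their values were seen. So were Ttr, Hspa5 and Cpne7, which the rules also name.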

Additional observations from a re-analysis of the deposited data

Results flagged for a closer look

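In 20 of the 238 groups of 4 libraries screened, 1 library lay farther from the others of its group than Dixon's 95% limit for 4 samples. Chance flags about 1 in 20 groups, or 11.9 here. Among called genes this touched Hunk, at 41.4 CPM in Dnmt3a2 replicate 4 with the other 3 at 50.3 to 52.1. Ttr was at 773 CPM in Dnmt3a2 replicate 1 (others 7.39 to 86.6) and at 32.8 CPM in Control replicate 4 (others 6.19 to 9.93). Podn was at 1.58 CPM in Dnmt3a2 replicate 1 (others 3.03 to 3.29). Arc stood at 403 CPM in Dnmt3a2 replicate 4 (others 112 to 149).

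In the Control group, replicate 4 was far from the rest for Fkbp5 (41.3 CPM, others 47.1 to 48), Glul (1188 CPM, others 1066 to 1077) and Hspa5 (96.6 CPM, others 108.7 to 109.8). Cacng2 was at 108.3 CPM in replicate 1 (others 101.5 to 102.1), Inhba at 5.999 CPM in replicate 2 (others 5.29 to 5.4) and Sox11 at 14 CPM in replicate 3 (others 12 to 12.1).

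List scores far from the rest of their group were found for neocortex (-0.195) and immature neurons (0.27) in Dnmt3a2 replicate 1, for hexokinases and glycolysis in Dnmt3a2 replicate 3 (0.016), and for oligodendrocyte precursors (-0.19) and blood (-0.023) in Dnmt3a2 replicate 4. In Control they were found for subiculum (0.286) and striatal markers (0.151) in replicate 3 and for late activity-regulated genes (-0.152) and glutamate receptors (-0.142) in replicate 4.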

How the results depend on the processing

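The count of genes called at 1 day was 15, and the alternatives that moved it by over 1.5 times were DESeq2 (59, of which 30 higher and 29 lower), no low-count filter (34, 22 higher and 12 lower), the 8 libraries fitted alone (7) and an adjusted p under 0.10 (23). Leaving out 1 library of day 1 gave 6 to 22 calls, with 6 without Control replicate 2 and 7 without Dnmt3a2 replicate 3. With DESeq2 size factors there were 15, with limma-trend on the deposited log2 values 16, at a mean CPM of at least 1 also 16, without the 2 choroid-rich libraries 22, and without the 3 interferon-rich libraries 14, of which 8 were among the 15. The log2 fold change of Dnmt3a ranged from 4.70 to 4.96. By DESeq2, 1 gene differed between days, against 0 by edgeR; with the 8 libraries alone that difference could not be fitted. Of the 15 genes, 10 to 13 were called at 5 days. Over single named genes, 327 of 408 comparisons kept direction and side of the threshold, 55 no longer passed, 26 newly passed and 0 changed direction. All 55 fell among the called genes, with 17 alternatives each, since the other genes had no call to lose. Ypel2 lost its call in 11 of 17 and Dnmt3a in 0. Of 799 list medians 8 moved by more than the spread between replicates. The cause of these changes was not tested. The labels do not say what libraries of equal replicate number share, and the main fit did not pair them. Deviations of equal numbers at 1 day correlated at -0.00948 to 0.273, over 0.1 in 1 of 4 pairs. Over all 16 libraries, 8 of 24 such pairs were over 0.1, with 0.38 between Dnmt3a2 replicates 1 of 1 and 5 days. Of the 16 libraries, 6 correlated best with their own number. Whether equal numbers share a batch was not tested. With the replicate block 17 genes were called, all 15 among them.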

Other observations

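Several gene groups not described above lay near the middle of all genes at 1 day. The ranges give the lowest and highest median with 1 library of day 1 left out. Of 24 circadian clock genes 14 lay above 0 (median log2 fold change 0.018, -0.008 without Control replicate 1 to 0.039 without Dnmt3a2 replicate 1), with 0 called by edgeR or DESeq2 and 3 (12.5%, beside 7.17% of all genes) at an unadjusted p under 0.05. Mitochondrially encoded mRNAs lay below 0 in 12 of 13 cases with a median of -0.026 (-0.163 without Dnmt3a2 replicate 4 to 0.053 without Dnmt3a2 replicate 1). Interneuron markers lay below 0 in 16 of 25 (median -0.062, -0.077 without Control replicate 4 to 0 without Control replicate 3, and 0.016 without the 3 interferon-rich libraries), and subiculum markers in 13 of 19 (median -0.061, -0.12 without Control replicate 2 to -0.006 without Control replicate 3). Endothelial markers had a median of 0.01 (-0.052 without Dnmt3a2 replicate 1 to 0.095 without Control replicate 1), mural cell markers of 0.007 (-0.108 without Control replicate 3 to 0.103 without Control replicate 4), and markers of thalamus and habenula of 0.046 (-0.018 without Control replicate 4 to 0.081 without Control replicate 3).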
